A study of Mus musculus with 241 samples.

Results

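Expression of 7 genes of the Notch pathway was described in early T-cell progenitors of the mouse thymus. They are the receptor genes Notch1, Notch2 and Notch3, the gene for the nuclear partner of the receptors, Rbpj, and the target genes Dtx1, Hes1 and Nrarp. They were chosen by name and not by a cut on their values, although earlier results of these data were known. All 7 were found among the 24506 genes of the bulk table, the 43346 genes of the C1 table and the 27998 genes of the 10x tables. Notch receptors are single-pass membrane proteins that are cleaved when a ligand on a neighbouring cell engages them. The freed intracellular part enters the nucleus, binds the DNA-binding protein RBPJ and a Mastermind coactivator, and turns on target genes. In the thymus, the ligand Dll4 on epithelial cells acts through Notch1 on incoming progenitors and is needed for T-lineage development.

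Cells were sorted from thymus as lineage-negative, 7AAD-negative, CD44+ and Kit+. The bulk libraries came from C57BL/6 mice of the genotype Bcl11byfp/yfp, in which a yellow fluorescent reporter marks Bcl11b, a transcription factor gene that comes on at T-lineage commitment. CD25- early T-cell progenitors (ETPs) were sorted as Flt3+ ETP (2 libraries), Flt3- ETP (2 libraries) or undivided, total ETP (2 libraries). CD25+ cells, the DN2a stage, were sorted as reporter-negative Bcl11b- DN2a (3 libraries) and reporter-positive Bcl11b+ DN2a (3 libraries). Single cells came from wild-type C57BL/6 mice and were sorted without the CD25, Flt3 or reporter gates. They were profiled as 2 droplet libraries (10x) and 1 by 1 on the C1 chip. By the leading digits of their library numbers, the C1 cells fell into 4 sets, which were read from the numbers alone. All bulk groups carried the reporter on both alleles, no treatment is named in the labels, and ages and numbers of pooled mice were not given in the sources used here. Separate mice are not named for the libraries, and the p-values below therefore reflect library-to-library spread, part of which may be technical.

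Between 21195217 and 38514003 reads fell on gene models in each of the 12 bulk libraries, and the 10x libraries held 43734920 and 55522900 UMIs (unique molecular identifiers, a barcode on each captured RNA molecule). By the library numbers in the labels, the bulk libraries fell into 3 series. Series 1, made with NEBNext Ultra, holds replicate 1 of both ETP fractions and both DN2a populations. Series 2, amplified with SMART-Seq v4, holds replicate 2 of both ETP fractions and replicate 3 of both DN2a populations. Series 3, made with NEBNext Ultra, holds both total ETP libraries and replicate 2 of both DN2a populations. Kit was at 21.7 to 121.3 FPKM (reads scaled to library size and to exon length) and Cd44 at 8.22 to 46.7 FPKM across the 12 libraries. Series 1 stood apart in transcripts of the T-cell receptor complex. Cd3e, a subunit of that complex, measured 15.4 and 12 FPKM in the series 1 libraries of Flt3+ and Flt3- ETP, against 0.089 to 1.61 FPKM in the other 4 ETP libraries. Results that rest on series 1 are therefore also given without it.

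Promoter windows of 3 of the genes are shown because Nrarp and Dtx1 were lower in Bcl11b+ than in Bcl11b- DN2a in every library series, and because Rbpj encodes the factor that binds the core letters TGGGAA. The windows come from RefSeq on GRCm38.p6 and run from 250 bases before to 50 bases after a start listed there, 5′ to 3′ on the strand of the gene. They lie at chr2:25180508-25180807 on the plus strand (Nrarp), chr5:120711620-120711919 on the minus strand (Dtx1) and chr5:53590096-53590395 on the plus strand (Rbpj). RefSeq lists 2 such windows for Rbpj, and both lie inside the longer gene model on which the bulk reads were counted, downstream of its first base. Capitals mark TGGGAA or its reverse complement TTCCCA.
Nrarp: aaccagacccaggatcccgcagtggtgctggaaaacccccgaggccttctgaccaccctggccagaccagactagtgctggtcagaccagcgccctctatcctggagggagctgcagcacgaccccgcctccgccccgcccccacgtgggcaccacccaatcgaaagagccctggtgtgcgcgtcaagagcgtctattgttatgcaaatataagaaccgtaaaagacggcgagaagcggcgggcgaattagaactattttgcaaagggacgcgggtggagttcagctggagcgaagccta
Dtx1: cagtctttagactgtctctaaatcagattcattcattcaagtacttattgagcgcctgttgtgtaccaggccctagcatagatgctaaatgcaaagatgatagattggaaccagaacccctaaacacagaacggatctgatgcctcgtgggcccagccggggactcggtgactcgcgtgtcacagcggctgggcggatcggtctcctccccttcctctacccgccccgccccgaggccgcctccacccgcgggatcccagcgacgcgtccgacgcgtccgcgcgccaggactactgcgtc
Rbpj: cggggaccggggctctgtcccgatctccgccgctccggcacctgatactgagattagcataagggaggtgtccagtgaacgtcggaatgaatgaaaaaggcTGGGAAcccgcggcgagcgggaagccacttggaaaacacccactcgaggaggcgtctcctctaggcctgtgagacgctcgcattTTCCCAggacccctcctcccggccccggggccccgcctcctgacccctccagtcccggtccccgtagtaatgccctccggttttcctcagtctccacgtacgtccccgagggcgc
Neither the Nrarp nor the Dtx1 window holds these letters on either strand. The Rbpj window shown holds them once on each strand, with the start of the minus-strand match at position -65 from its start site, and the second Rbpj window (chr5:53590236-53590535), which overlaps it, holds 1 match. Of all 32851 windows in the table, 25.6% hold TGGGAA on either strand, and 6.38% hold the longer GTGGGAA, which overlaps it. A window was given for 6 of the 7 genes, and none of those of Notch1, Notch2 and Notch3 holds TGGGAA. A match is a run of letters and not a measured site.

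Notch1, the receptor that specifies the T lineage (NM_008714, chr2:26457902-26503822, minus strand, mm10), was the most abundant of the 3 receptors in every bulk library. It measured 71.6 and 8.34 FPKM in Flt3+ ETP, 37.9 and 7.88 FPKM in Flt3- ETP, 57 and 51.1 FPKM in total ETP, 81.2, 77.3 and 8.86 FPKM in Bcl11b- DN2a and 67.8, 64.1 and 7.47 FPKM in Bcl11b+ DN2a. The low value in each population other than total ETP came from its SMART-Seq library, and among NEBNext libraries Flt3- ETP was the lowest, at 37.9 FPKM, with the other 7 between 51.1 and 81.2 FPKM. Notch2 (NM_010928, chr3:98013538-98150367, plus strand), a receptor best known in marginal-zone B cells and myeloid cells, measured 11.6 and 1.07 FPKM in Flt3+ ETP, 6.2 and 1.38 FPKM in Flt3- ETP, 13.8 and 13.1 FPKM in total ETP, 10.6, 12.2 and 0.967 FPKM in Bcl11b- DN2a and 7.37, 7.23 and 0.676 FPKM in Bcl11b+ DN2a. Among NEBNext libraries, Notch2 was highest in total ETP and lowest in Flt3- ETP and Bcl11b+ DN2a.

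Notch3 (NM_008716, chr17:32120893-32166852, minus strand), a receptor whose gene is itself a target of Notch signals in thymocytes, ranged the widest of the 7 across libraries. It measured 6.76 and 0.112 FPKM in Flt3+ ETP, 4.44 and 0.113 FPKM in Flt3- ETP, 0.628 and 0.465 FPKM in total ETP, 8.11, 3.1 and 0.197 FPKM in Bcl11b- DN2a and 11.9, 6.95 and 0.671 FPKM in Bcl11b+ DN2a. Both ETP fractions of series 1 were above the total ETP libraries, which are of the same kit. In each series that holds DN2a libraries, Bcl11b+ DN2a had the higher value. The lowest library held 42 Notch3 reads.

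Rbpj (NM_001080928, chr5:53555779-53657445, plus strand) measured 17 and 10.6 FPKM in Flt3+ ETP, 9.71 and 9.14 FPKM in Flt3- ETP, 22.1 and 26.1 FPKM in total ETP, 17.1, 22 and 9.79 FPKM in Bcl11b- DN2a and 14.9, 22.1 and 8.22 FPKM in Bcl11b+ DN2a. Its 4 libraries of series 3 were the highest, whatever the population.

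Among the targets, Hes1, a basic helix-loop-helix repressor (NM_008235, chr16:30065357-30067796, plus strand), was the most abundant in every library and the steadiest. It measured 37.9 and 44.2 FPKM in Flt3+ ETP, 46.2 and 59.7 FPKM in Flt3- ETP, 35.7 and 38.8 FPKM in total ETP, 39.3, 43.1 and 62.6 FPKM in Bcl11b- DN2a and 35.7, 37.6 and 40.6 FPKM in Bcl11b+ DN2a. Nrarp, a small ankyrin-repeat protein that restrains the Notch complex as a feedback inhibitor (NM_025980, chr2:25180758-25183332, plus strand), measured 15.2 and 11.3 FPKM in Flt3+ ETP, 17.5 and 8.94 FPKM in Flt3- ETP, 14.2 and 15.5 FPKM in total ETP, 18.1, 20.3 and 12 FPKM in Bcl11b- DN2a and 9.38, 9.4 and 7.06 FPKM in Bcl11b+ DN2a. In both kits the Bcl11b+ DN2a libraries were the lowest of all. Dtx1, which encodes the E3 ubiquitin ligase Deltex1 (NM_008052, chr5:120680264-120711669, minus strand), measured 3.93 and 0.255 FPKM in Flt3+ ETP, 5.88 and 1.88 FPKM in Flt3- ETP, 1.63 and 1.38 FPKM in total ETP, 9.59, 4.96 and 2.55 FPKM in Bcl11b- DN2a and 3.53, 1.56 and 0.973 FPKM in Bcl11b+ DN2a. Within each series, Bcl11b- DN2a had the highest Dtx1 value.

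**Figure D1:**
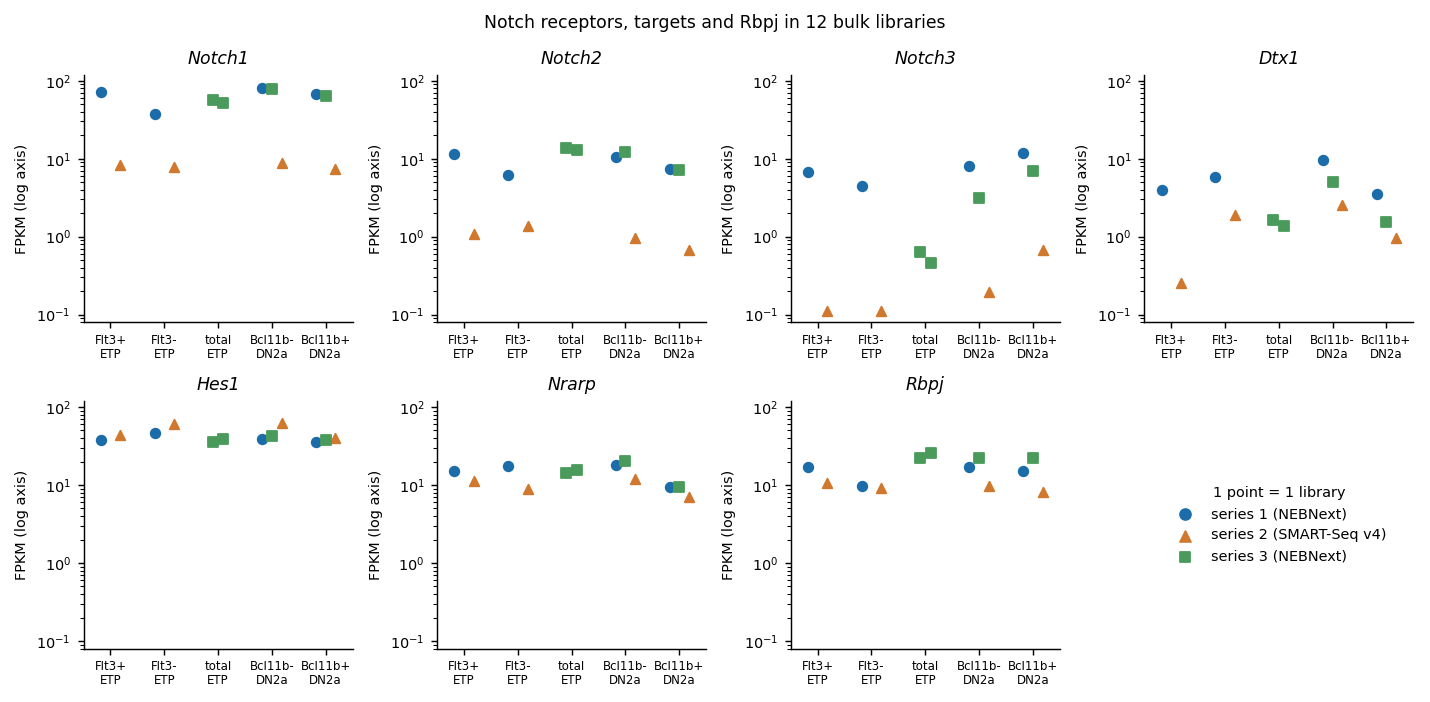
FPKM of the 7 genes (log axis) in the 12 bulk libraries by sorted population, with 1 point per library and colour and shape for the library-number series. Within each population that holds both kits, the SMART-Seq library lies far below the NEBNext libraries for the 3 receptors. Over all libraries, Notch1 is at 7.47 to 8.86 FPKM with SMART-Seq and at 37.9 to 81.2 FPKM with NEBNext. Nrarp is lowest in Bcl11b+ DN2a within each kit.

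Levels of the long transcripts differed between kits much more than those of the short ones, and the SMART-Seq kit and series 2 cannot be told apart. With populations held fixed, SMART-Seq libraries differed from NEBNext libraries in log2(FPKM + 1) by -2.77 for Notch1, -2.51 for Notch3 and -2.29 for Notch2. The exons of these 3 genes span 9453, 7908 and 10470 bases. The median difference was -1.01 over the 488 genes longer than 7500 bases and 0.68 over the 2852 genes of up to 1500 bases. Dtx1 (3703 bases) differed by -1.29, Rbpj (5381 bases) by -0.67, Nrarp (2572 bases) by -0.58 and Hes1 (1445 bases) by 0.33. The log2(FPKM + 1) scale shrinks differences between values near 0. As FPKM ratios by population, SMART-Seq over NEBNext ran from 0.0166 to 0.0713 for Notch3 and from 0.0649 to 0.382 for Dtx1. For Notch1 the ratio ran from 0.112 to 0.208, and for Notch2 from 0.0847 to 0.222. Comparisons were therefore made with the kit as a term, and the order of the 7 genes by level holds within a kit only.

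The first comparison, of Flt3- with Flt3+ ETPs, asks how the genes differ across the Flt3 gate. A gene is called where the p of limma on log2(FPKM + 1), adjusted after Benjamini and Hochberg over all genes, is under 0.05. None of the 7 genes was called here, where 0.685% of the 12112 genes tested were. Dtx1 had the largest difference, 0.84 ± 0.35 (SE, 2 libraries against 2, limma adjusted p = 0.257), with 1.5 times the Flt3+ value in series 1 and 7.38 times in series 2. With the series as a block, the difference was 0.84 ± 0.20 and was called (adjusted p = 0.0402, 4.85% of genes called). Without series 1 it was 1.2 and called (adjusted p = 0.0127, 4.68% of genes called), with a single library in each ETP fraction. Notch1 differed by -0.49 ± 0.21 (adjusted p = 0.262), Hes1 by 0.35 ± 0.15 (adjusted p = 0.268) and Rbpj by -0.47 ± 0.25 (adjusted p = 0.351). At an unadjusted p under 0.05, Dtx1 (p = 0.034), Notch1 (p = 0.0366) and Hes1 (p = 0.0387) passed in limma, and edgeR on recovered reads called none of the 7 (0.479% of all genes). Without the SMART-Seq library of Flt3- ETP, only the series 1 library of that group is left. Notch1 then differed by -0.91 and Notch2 by -0.76. Without series 1, they differed by -0.07 and 0.2. The median difference of the 7 genes was -0.26, against -0.15 over all genes tested. Under median-ratio scaling these medians were -0.16 and -0.02. Transcripts of granulocytes moved with this comparison, since 10 such genes summed to 542.57 and 1096.12 FPKM in Flt3- ETP and to 102.54 and 138.97 FPKM in Flt3+ ETP. In the 10x libraries, the 21 and 20 cells with granule transcripts held no UMI of Dtx1 or Notch3, which allows up to 10.2 and 17.4 UMIs of each per 1000000 UMIs. On that scale they held Notch1 at 27.5 and 23.5 and Hes1 at 13.8 and 0.0. Cells with Flt3 but no Il2ra or Bcl11b transcripts held Notch1 at 92.2 and 126.5 and Hes1 at 229.8 and 205.1. The values of Notch2, Nrarp and Rbpj were also lower in the granule-transcript cells. The part of such cells in the bulk differences was not tested.

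The onset of CD25 was spanned by 2 comparisons, of Bcl11b- DN2a cells with Flt3- ETPs and with total ETPs. Against Flt3- ETP, none of the 7 genes was called in limma, where 3.97% of genes were. Notch1 had the largest difference, 0.63 ± 0.19 (SE, 3 libraries against 2, limma adjusted p = 0.0858), with 2.14 times the Flt3- ETP value in series 1 and 1.12 times in series 2. Without series 1 the Notch1 difference was 0.16 (adjusted p = 0.605). Rbpj differed by 0.55 ± 0.23 (adjusted p = 0.179), and the other 5 genes by -0.09 to 0.31. At an unadjusted p under 0.05, Notch1 (p = 0.00609) and Rbpj (p = 0.0391) passed, and edgeR on recovered reads called none of the 7 (6.04% of all genes). Without the SMART-Seq library of Flt3- ETP, only the series 1 library of that group is left. Notch1 then differed by 1.03, Rbpj by 0.92 and Notch2 by 0.74. Without series 1, Rbpj differed by 0.03 and Notch2 by -0.16. In bulk RNA, fewer cells with a transcript and less of it per cell cannot be told apart.

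Against total ETP, 2 of the 7 genes were called, both higher in Bcl11b- DN2a, where 15.6% of all genes were called and 9.78% were higher. They were Notch3, at 8.11, 3.1 and 0.197 FPKM in Bcl11b- DN2a against 0.628 and 0.465 FPKM in total ETP, and Dtx1, at 9.59, 4.96 and 2.55 FPKM against 1.63 and 1.38 FPKM. The SMART-Seq library of Bcl11b- DN2a lay below both total ETP libraries for Notch3. Total ETP libraries belong to series 3 alone, so the fit sets them beside series 1 libraries as well. Within series 3, Bcl11b- DN2a had 5.67 times the mean Notch3 level and 3.3 times the mean Dtx1 level of total ETP. Notch3 rose by 1.56 ± 0.22 (limma adjusted p = 0.00133) and Dtx1 by 1.19 ± 0.22 (adjusted p = 0.00638) with the series as a block, and 7.76% of all genes were called in that fit. Without series 1, the differences were 1.53 for Notch3 (adjusted p = 0.00028) and 1.16 for Dtx1 (adjusted p = 0.000777), Notch1 was called as well (0.50, adjusted p = 0.00818), and 27% of genes were called. With the kit as the only added term, they were 2.04 and 1.70. The Notch3 call was then lost with NEBNext libraries only (1.98, adjusted p = 0.0636), without the filter on low values (2.04, adjusted p = 0.0519) and without the kit term (1.2, adjusted p = 0.827). The Dtx1 call was lost in the same 3 settings and without either total ETP library (1.77, adjusted p = 0.0534, and 1.63, adjusted p = 0.111) or without replicate 1 of Bcl11b- DN2a (1.46, adjusted p = 0.0555). T-cell transcripts moved the same way. A list of 14 genes of later T cells, Cd3 subunits included, summed to 303.6, 215.4 and 346.8 FPKM in Bcl11b- DN2a and to 122.2 and 108.3 FPKM in total ETP, and their part in the 2 results was not tested. Within series 3 the list summed to 215.4 FPKM in Bcl11b- DN2a and to 122.2 and 108.3 FPKM in total ETP, and its members Cd3d, Cd3e, Cd3g and Ptcra were at 0.132 to 0.801 FPKM in Bcl11b- DN2a and at 0.159 to 1.17 FPKM in total ETP. Notch1 was higher by 0.47 ± 0.19 (adjusted p = 0.105), and Nrarp, Hes1, Notch2 and Rbpj differed by 0.33, 0.23, -0.33 and -0.36, none of them called.

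The step at which the reporter comes on was taken as Bcl11b+ DN2a against Bcl11b- DN2a. Nrarp, the feedback inhibitor, was called lower, as 1 of the 7 genes, where 2.79% of all genes were called and 1.64% were lower. It measured 9.38, 9.4 and 7.06 FPKM in Bcl11b+ DN2a and 18.1, 20.3 and 12 FPKM in Bcl11b- DN2a. The log2 difference of Nrarp was -0.87 ± 0.14 (SE, 3 libraries against 3, limma adjusted p = 0.00546), and its level was 0.52, 0.59 and 0.46 times the Bcl11b- level in series 1, 2 and 3. In edgeR on recovered reads the difference was -0.90 (adjusted p = 0.0166, 3.82% of genes called). The call was lost with NEBNext libraries only (-0.96, limma adjusted p = 0.0565) and without the kit term (-0.87, adjusted p = 1).

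Dtx1 measured 3.53, 0.973 and 1.56 FPKM in the Bcl11b+ DN2a libraries of series 1, 2 and 3, against 9.59, 2.55 and 4.96 FPKM in the Bcl11b- libraries. The level in Bcl11b+ DN2a was lower in every series, at 0.37, 0.38 and 0.32 times that in Bcl11b- DN2a, although the ranges of the groups overlap across series. The difference of -1.10 ± 0.28 missed the threshold with the kit as a term (limma adjusted p = 0.0751) and passed it with the series as a block (-1.10 ± 0.16, adjusted p = 0.00172, 5.63% of genes called). Notch3 ran the other way, at 11.9, 0.671 and 6.95 FPKM in the Bcl11b+ libraries of series 1, 2 and 3 against 8.11, 0.197 and 3.1 FPKM in the Bcl11b- libraries. Its ratios were 1.46, 3.41 and 2.24. The difference was 0.64 ± 0.28 (adjusted p = 0.384) with the kit as a term and 0.64 ± 0.17 (adjusted p = 0.0446) with the series as a block. Without series 1, Nrarp, Dtx1, Notch3 and Hes1 were called, with 10.3% of all genes, and Hes1 differed by -0.40 (adjusted p = 0.0436).

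Notch2 was lower in Bcl11b+ DN2a in every series, at 0.69, 0.70 and 0.59 times the Bcl11b- level, without being called (-0.46 ± 0.19, limma adjusted p = 0.366). Notch1 stood at 0.84, 0.84 and 0.83 times the Bcl11b- level (-0.25 ± 0.17, adjusted p = 0.739). Hes1 differed by -0.31 ± 0.12 (adjusted p = 0.322) and Rbpj by -0.14 ± 0.21 (adjusted p = 0.999). The median difference of the 7 genes was -0.31, against -0.04 over all genes tested. T-cell transcripts were higher on the Bcl11b+ side, with the list of 14 summing to 488.4, 395.1 and 628.2 FPKM in Bcl11b+ DN2a and to 303.6, 215.4 and 346.8 FPKM in Bcl11b- DN2a. Cd3e was at 14.2, 7.3 and 13.3 FPKM in Bcl11b+ DN2a and at 5.77, 0.275 and 0.824 FPKM in Bcl11b- DN2a. Their part in the bulk results was not tested.

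The ends of the sorted sequence were set against each other as Bcl11b+ DN2a and Flt3+ ETP. Nrarp was again the called gene, 1 of 7, where 11.3% of all genes were called and 7.9% were lower. It measured 9.38, 9.4 and 7.06 FPKM in Bcl11b+ DN2a and 15.2 and 11.3 FPKM in Flt3+ ETP. The difference was -0.66 ± 0.15 (SE, 3 libraries against 2, limma adjusted p = 0.0159), and the call was lost in edgeR on recovered reads (-0.64, adjusted p = 0.0512, 13.3% of genes called) and without either Flt3+ ETP library (-0.77, adjusted p = 0.0713, and -0.56, adjusted p = 0.146). With the series as a block, Notch3 was called too (0.74 ± 0.20, adjusted p = 0.0237, 15.7% of genes called), against 0.50 ± 0.31 (adjusted p = 0.374) with the kit as a term. Without series 1, Nrarp (-0.70, adjusted p = 0.00681) and Notch3 (0.71, adjusted p = 0.0391) were called, with 23.9% of all genes. Dtx1 differed by -0.02 ± 0.32, Notch1 by -0.10 ± 0.19, Hes1 by -0.05 ± 0.14 and Rbpj by -0.07 ± 0.23, and Notch2 by -0.45 ± 0.22 (adjusted p = 0.239). This comparison shares its libraries with 2 of the others.

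**Figure D2:**
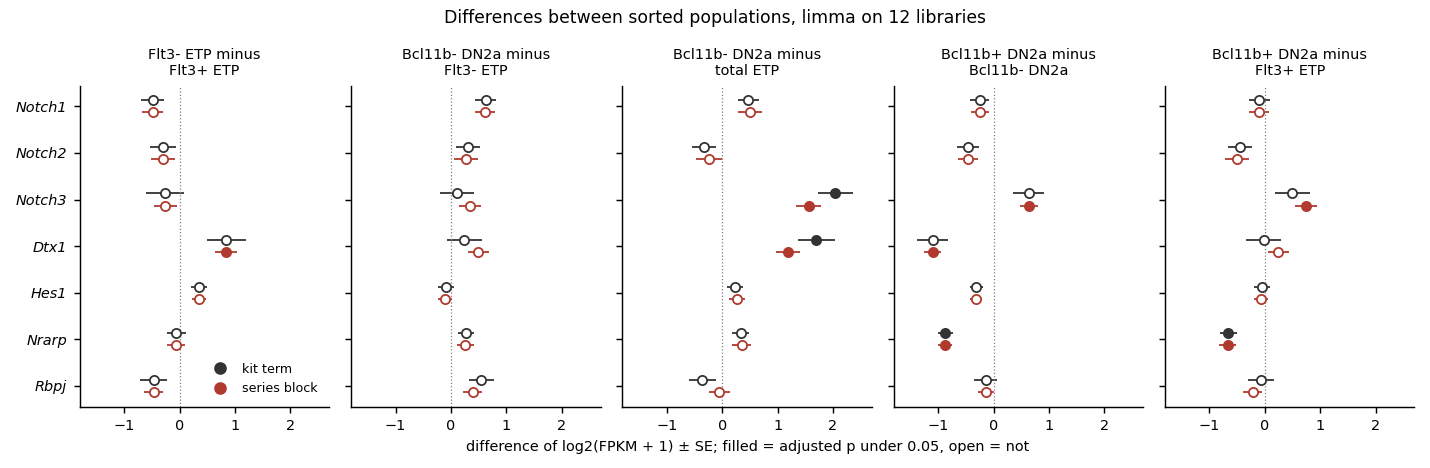
Difference of log2(FPKM + 1) ± SE for the 7 genes in the 5 bulk comparisons, from limma with a kit term (black) and with the series as a block (red), filled where the adjusted p is under 0.05. Nrarp lies left of 0 in both fits for Bcl11b+ against Bcl11b- DN2a (-0.87 in each), and Notch3 and Dtx1 lie right of 0 for Bcl11b- DN2a against total ETP.

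In the 10x libraries, 4878 and 8434 cells were kept, with medians of 8488 and 6137 UMIs, and 57 barcodes occurred in both. Doublets were not removed. Cells were classed by at least 1 UMI of Flt3, Il2ra (which encodes CD25) and Bcl11b. The classes were Flt3 only (443 and 624 cells), none of the 3 (1635 and 3295), Il2ra without Bcl11b (1450 and 2088), Il2ra and Bcl11b (1197 and 1933) and, for the remaining cells, Bcl11b without Il2ra. These are ranges of detection and not cell types, since 711 of 2647 and 1379 of 4021 cells with Il2ra, and 305 of 1350 and 696 of 2427 cells with Bcl11b, held a single UMI of it. UMIs were summed per library and class. A level in CPM is the UMIs of the gene per 1000000 UMIs of the class, and intervals cover counting error only.

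Dtx1 and Notch3 were scarce in cells without Il2ra or Bcl11b. Dtx1 stood at 1.12 and 0.448 CPM in Flt3-only cells of libraries 1 and 2, at 4.21 and 4.92 in cells with none of the 3, at 11.5 and 9.54 in Il2ra cells without Bcl11b, at 14.1 and 11.8 in Il2ra and Bcl11b cells and at 20.9 and 12.1 in Bcl11b cells without Il2ra. Flt3-only cells held 5 and 2 Dtx1 UMIs in all, and the levels in Il2ra cells without Bcl11b were 10.3 times (95% counting interval 4.3 to 32.1) and 21.3 times (lower bound 5.78) as high. Notch3 stood at 0.67 and 0.896 CPM in Flt3-only cells, at 1.25 and 1.93 with none of the 3, at 5.11 and 4.77 in Il2ra cells without Bcl11b, at 23.2 and 21.5 in Il2ra and Bcl11b cells and at 38.4 and 38.1 in Bcl11b cells without Il2ra. In both libraries its level increased with each class. The share of cells with a Notch3 UMI was 18.1% and 12.6% in Il2ra and Bcl11b cells and 4.41% and 3.02% in Il2ra cells without Bcl11b. The granule-transcript cells, at median depths of 16285 and 11055 UMIs against 9002 and 6771 in the Il2ra and Bcl11b cells, held none.

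Notch1 stood at 92.2 and 126.5 CPM in Flt3-only cells, 98 and 135.6 with none of the 3, 135.6 and 149.4 in Il2ra cells without Bcl11b, 161.9 and 178.9 in Il2ra and Bcl11b cells and 158.7 and 176.4 in Bcl11b cells without Il2ra. Notch2 ran the other way, at 30.2 and 40.5 in Flt3-only cells, 30.3 and 46 with none of the 3, 23.7 and 31.9 in Il2ra cells without Bcl11b, 16.1 and 24.4 in Il2ra and Bcl11b cells and 23.4 and 23 in Bcl11b cells without Il2ra. Nrarp peaked in Il2ra cells without Bcl11b in both libraries. It stood at 31 and 34.9 CPM in Flt3-only cells, 30.8 and 31.4 with none of the 3, 36.2 and 39.2 in Il2ra cells without Bcl11b, 21.2 and 17.8 in Il2ra and Bcl11b cells and 18.4 and 12.8 in Bcl11b cells without Il2ra. Hes1 stood at 229.8 and 205.1 CPM in Flt3-only cells, 309.7 and 241.5 with none of the 3, 331.2 and 238.6 in Il2ra cells without Bcl11b, 354.4 and 247.5 in Il2ra and Bcl11b cells and 359.2 and 265.1 in Bcl11b cells without Il2ra. Rbpj lay between 31.7 and 37 in library 1 and between 30 and 42.3 in library 2.

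**Figure D3:**
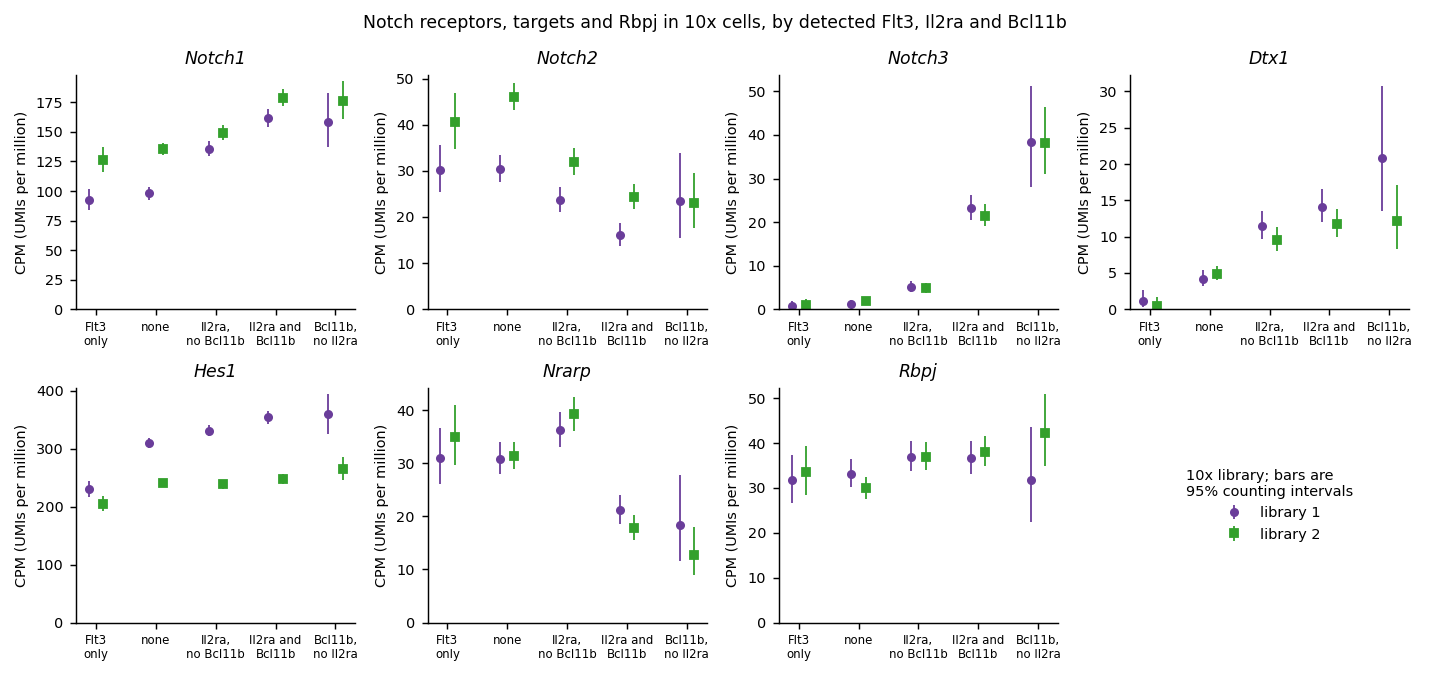
CPM of the 7 genes in 10x cells by detection of Flt3, Il2ra and Bcl11b, with 1 point per library and 95% counting intervals. Notch3 climbs to 38.4 and 38.1 in Bcl11b cells without Il2ra, while Nrarp is at 21.2 and 17.8 in cells with Il2ra and Bcl11b, against 36.2 and 39.2 in Il2ra cells without Bcl11b.

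Il2ra cells without Bcl11b were compared with Flt3-only cells in edgeR, with the library as a block. Of the 7 genes, 4 rose and 1 fell, where 18.8% of the 11868 genes tested were called, 7.95% higher and 10.9% lower. Dtx1 rose by 3.65 ± 0.36 on the log2 scale (SE, 2 libraries, edgeR adjusted p = 1.97e-12) and Notch3 by 2.56 ± 0.42 (adjusted p = 2.37e-06), both from the few UMIs given above in Flt3-only cells. Notch1 rose by 0.31 ± 0.07 (adjusted p = 0.00034) and Hes1 by 0.30 ± 0.06 (adjusted p = 2.54e-05), while Notch2 fell by 0.42 ± 0.10 (adjusted p = 0.00186). Single libraries differed in size, with 0.47 in library 1 and 0.20 in library 2 for Notch1 and 0.44 in library 1 and 0.17 in library 2 for Hes1, as values with no test. Nrarp (0.12 ± 0.10, adjusted p = 0.51) and Rbpj (0.10 ± 0.10, adjusted p = 0.571) were not called. With every cell thinned to 4000 UMIs, Dtx1, Notch3 and Notch2 were called, with 11.1% of all genes, and Notch1 (0.13, adjusted p = 0.484) and Hes1 (0.20, adjusted p = 0.0819) were not.

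Il2ra and Bcl11b cells were compared with Il2ra cells without Bcl11b in the same fit. Here 2 of the 7 genes rose and 2 fell, where 24.2% of all genes were called, 11.6% higher and 12.5% lower. Notch3 rose by 2.14 ± 0.13 (SE, 2 libraries, edgeR adjusted p = 3.64e-21) and Notch1 by 0.22 ± 0.05 (adjusted p = 0.000723). Nrarp fell by 1.00 ± 0.09 (adjusted p = 7.11e-15) and Notch2 by 0.49 ± 0.09 (adjusted p = 1.47e-05). Dtx1 differed by 0.26 ± 0.13 (adjusted p = 0.145), Hes1 by 0.04 ± 0.05 (adjusted p = 0.612) and Rbpj by -0.02 ± 0.08 (adjusted p = 0.882). DESeq2 did not call Notch1 (0.22, adjusted p = 0.0863). Nrarp, Notch2, Notch3 and Rbpj differed with the sign of the bulk difference between Bcl11b+ and Bcl11b- DN2a, and Notch1, Dtx1 and Hes1 with the opposite sign.

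T-cell receptor transcripts moved with the Bcl11b classes. The list of 14 T-cell genes summed to 1844.2 and 2137.4 CPM in Il2ra and Bcl11b cells and to 551.6 and 682.8 in Il2ra cells without Bcl11b. Cells with Cd3 transcripts were taken as those with UMIs of Cd3e and of Cd3d or Cd8a, and made up 336 of 1197 (28.1%, exact 95% interval 25.5 to 30.7) and 537 of 1933 (27.8%, 25.8 to 29.8) of the Il2ra and Bcl11b cells. Their median depths were 4875 and 4222 UMIs, against 9767 and 7281 in those without Cd3 transcripts.

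Within the Il2ra and Bcl11b class, Dtx1 divided sharply by Cd3 transcripts. It stood at 45.3 and 38.7 CPM in cells with Cd3 transcripts and at 6.06 and 4.41 in cells without, and the ratios were 7.48 (95% counting interval 5.31 to 10.6) and 8.78 (6.17 to 12.7). Thinned to 4000 UMIs, the levels were 35.6 and 22 with and 5.07 and 4.48 without Cd3 transcripts. Notch3 stood at 65.8 and 61.4 CPM with and 12.2 and 10.5 without Cd3 transcripts, with ratios of 5.39 (4.18 to 6.98) and 5.85 (4.58 to 7.49). Both genes were thus several-fold higher in the cells with Cd3 transcripts of each library. The ratios were smaller for Notch1, at 1.82 (1.64 to 2.01) and 1.51 (1.38 to 1.65), and for Hes1, at 1.6 (1.49 to 1.71) and 1.28 (1.19 to 1.39). Nrarp was lower with Cd3 transcripts, at 8.44 and 14.7 CPM against 24.4 and 18.6 without, with ratios of 0.346 (0.204 to 0.554) and 0.79 (0.552 to 1.11). The interval for library 2 includes equal levels. These splits had no test across libraries.

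Without the Cd3 cells, and without the granule-transcript cells, the comparison of Il2ra and Bcl11b cells with Il2ra cells without Bcl11b changed for Dtx1. The fits left out both kinds of cells, while the CPM levels given beside them left out the Cd3 cells only. Dtx1 stood at 6.06 and 4.41 CPM with Bcl11b and at 11.3 and 9.01 without it, and fell by 0.99 ± 0.18 (SE, 2 libraries, edgeR adjusted p = 1.06e-06, 20% of genes called). Notch3 rose by 1.36 ± 0.18 (adjusted p = 2.22e-11), at 12.2 and 10.5 CPM with Bcl11b against 4.85 and 3.87 without it. Nrarp fell by 0.87 ± 0.09 (adjusted p = 6.6e-18) and Notch2 by 0.43 ± 0.09 (adjusted p = 7.26e-05). Notch1 was no longer called (0.06 ± 0.05, adjusted p = 0.463). In the comparison of Il2ra cells without Bcl11b with Flt3-only cells, Notch1, Notch2, Notch3, Dtx1 and Hes1 were called without these cells too, where 20.8% of genes were, Dtx1 at 3.6 and Notch3 at 2.38.

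**Figure D4:**
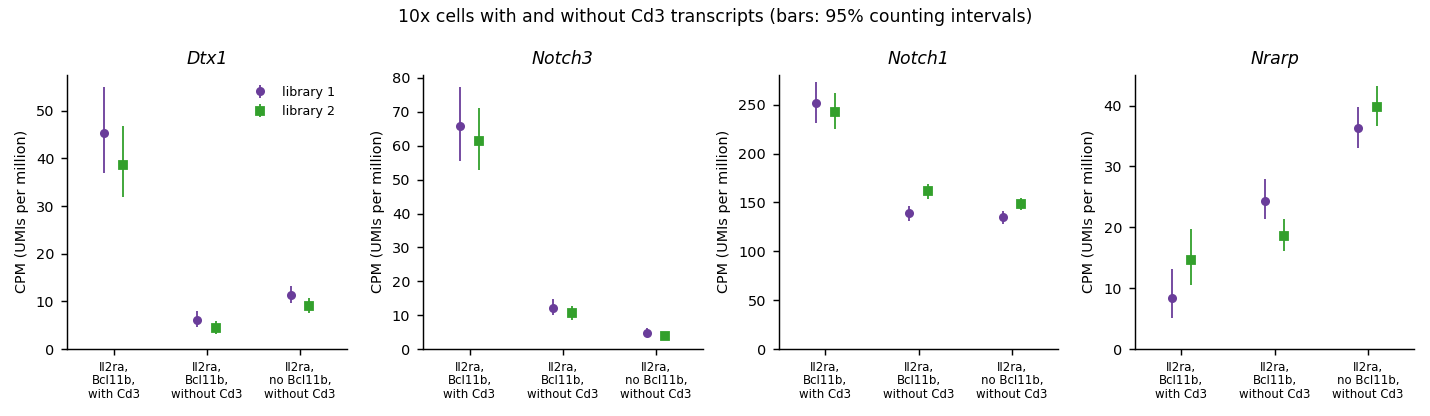
CPM of Dtx1, Notch3, Notch1 and Nrarp in 10x cells with Il2ra and Bcl11b, split by Cd3 transcripts, and in Il2ra cells without Bcl11b or Cd3 transcripts, with 1 point per library and 95% counting intervals. Dtx1 is at 45.3 and 38.7 with Cd3 transcripts and at 6.06 and 4.41 without them, below the 11.3 and 9.01 of the cells that lack Bcl11b.

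Within the Il2ra cells, levels were also followed by the number of Bcl11b UMIs after thinning each cell to 4000 UMIs. In libraries 1 and 2, 1238 and 1740 cells then held 0 Bcl11b UMIs, 320 and 462 held 1, and 220 and 276 held 3 or more. Levels below run over 0, 1, 2 and 3 or more Bcl11b UMIs. Nrarp stood at 38.2, 22.5, 22.7 and 12.4 CPM in library 1 and at 36.7, 22, 16.5 and 14.3 in library 2. Most of the difference lay between 0 and 1 Bcl11b UMI, where the counting intervals of 34.7 to 42 and 17.7 to 28.2 in library 1, and of 33.5 to 40.2 and 17.4 to 27.4 in library 2, do not meet. Notch3 stood at 7.02, 13.7, 23.4 and 38.4 CPM in library 1 and at 5.62, 12, 16.5 and 17.6 in library 2, higher at each step. From 1 Bcl11b UMI on, the counting intervals of neighbouring steps overlap in both libraries. The last 2 steps of library 2 have intervals of 11.4 to 23 and 12.1 to 24.9. Dtx1 was lowest at 1 Bcl11b UMI in both libraries, at 11.6, 5.47, 17.7 and 14.7 in library 1. In library 2 it stood at 8.36, 5.28, 7.26 and 8.81. Its counting interval at 1 Bcl11b UMI, 3.24 to 8.65 in library 1, lies below the others of that library. In library 2 the interval, 3.18 to 8.25, overlaps all the others. Notch2 stood at 20.4, 14.9, 14.9 and 16.9 in library 1 and at 29.3, 27.2, 20.8 and 17.1 in library 2. Notch1 stood at 135.2, 142.6, 159.6 and 189.8 in library 1 and at 148.5, 163.2, 176.2 and 179.5 in library 2, while Rbpj lay between 29.9 and 39.5 and between 33.4 and 45 with no order. Hes1 stood at 337.7, 325, 374.5 and 421.3 in library 1 and at 235.2, 239.3, 229.9 and 224.1 in library 2. The Hes1 intervals at 0 and at 3 or more Bcl11b UMIs were 327.1 to 348.6 and 391.6 to 452.6 in library 1. In library 2 they were 226.9 to 243.8 and 202.9 to 247, and overlap. Cells with Cd3 transcripts were not removed here, and their part in these levels was not tested.

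**Figure D5:**
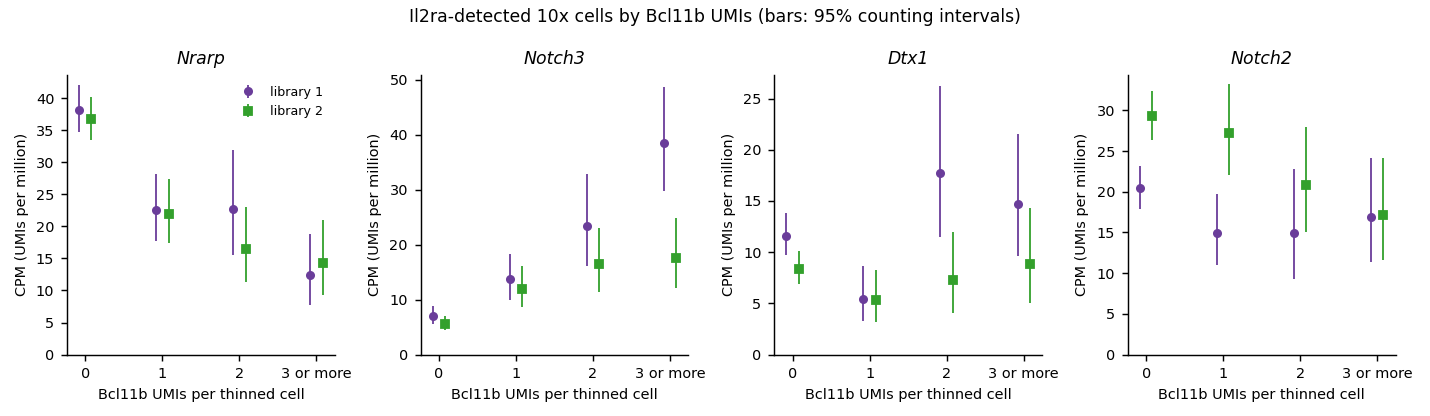
CPM of Nrarp, Notch3, Dtx1 and Notch2 in Il2ra-detected 10x cells by Bcl11b UMIs per cell thinned to 4000 UMIs, with 1 point per library and 95% counting intervals. Nrarp is at 12.4 and 14.3 in cells with 3 or more Bcl11b UMIs, against 38.2 and 36.7 in cells with 0, and Notch3 increases over the same steps.

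The C1 cells were sequenced along the whole transcript. Of the 4 sets by library number, 92, 23, 12 and 95 cells passed the filter of 1000 genes over 1 FPKM, and 5 did not. Detection means more than 1 FPKM, and the labels name no animal, so the cells form 1 group without a test. Hes1 was detected in 82.9% of cells (exact 95% interval 77.3 to 87.6), Notch1 in 68.9% (62.4 to 74.9) and Rbpj in 48.2% (41.5 to 55). Notch2 and Nrarp were each detected in 16.7% (12 to 22.2), Dtx1 in 9.91% (6.32 to 14.6) and Notch3 in 2 cells, 0.901% (0.109 to 3.22). Hes1 and Notch1 were thus found in most cells, and Dtx1 and Notch3 in few. Notch1 was detected in 75.4% of 65 Flt3-only cells (63.1 to 85.2), 72.3% of 94 Il2ra cells without Bcl11b (62.2 to 81.1) and 72.4% of 29 Il2ra and Bcl11b cells (52.8 to 87.3). Nrarp was detected in 20% (11.1 to 31.8), 14.9% (8.39 to 23.7) and 24.1% (10.3 to 43.5) of the same classes. Dtx1 was detected in 12.3% (5.47 to 22.8), 8.51% (3.75 to 16.1) and 20.7% (7.99 to 39.7) of them. The intervals overlap for each gene. These C1 cells were too few to order the classes by Dtx1. In Flt3-only 10x cells, 1.13% and 0.321% held a Dtx1 UMI, against the 12.3% of Flt3-only C1 cells with Dtx1. Notch3 was detected in 0 of 65, 1 of 94 and 0 of 29 cells of these classes (upper bound 11.9% in the last). In 10x, 18.1% and 12.6% of Il2ra and Bcl11b cells held a Notch3 UMI. Detection is by FPKM in C1 and by UMI in 10x, and the cause of these differences was not tested. The 33 cells with none of the 3 had a lower share with Notch1. It was 42.4% (25.5 to 60.8), below the intervals of Flt3-only cells and of Il2ra cells without Bcl11b. Nrarp was detected in 9.09% of them (1.92 to 24.3) and Dtx1 in 0 of 33, which allows up to 10.6%. Shares differed between the sets by library number. Notch1 was detected in 83.7% of the set of 92 cells and 57.9% of the set of 95 cells. The median numbers of genes in these sets were 5074 and 4118. The part of the set in the class shares was not tested.

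The rest of the pathway was followed as 73 genes in 9 lists, of which 59 passed the bulk filter and 61 that of the 10x sums. For Flt3- against Flt3+ ETP, 1 was called higher and 0 lower (1.69%, against 0.685% of all genes tested). For Bcl11b- DN2a, 5 were higher and 1 lower against Flt3- ETP (10.2%, against 3.97% of all genes) and 9 higher and 1 lower against total ETP (16.9%, against 15.6%). For Bcl11b+ DN2a, 3 were higher and 0 lower against Bcl11b- DN2a (5.08%, against 2.79%) and 6 higher and 5 lower against Flt3+ ETP (18.6%, against 11.3%). In 10x, 13 were higher and 2 lower in Il2ra cells without Bcl11b against Flt3-only cells (24.6%, against 18.8%), and 14 higher and 4 lower in Il2ra and Bcl11b cells against Il2ra cells without Bcl11b (29.5%, against 24.2%). Most of the genes higher in bulk belong to a list of 13 other Notch-responsive T-lineage genes, which also holds the gate genes Il2ra and Bcl11b. Where these 2 genes were called across their own gate, or between 10x classes cut by them, the call follows from the gate. Such calls are included in the shares above, and both genes in the median below, so these values are raised in part by the gates. Tcf7, which encodes the T-cell factor TCF1, rose by 1.39 ± 0.11 for Bcl11b- DN2a against total ETP (limma adjusted p = 6.99e-05), and Ccnd3, which encodes cyclin D3, by 1.03 ± 0.12 for Bcl11b+ against Bcl11b- DN2a (adjusted p = 0.00117). Il7r, the interleukin 7 receptor chain, rose by 1.21 ± 0.19 in that comparison (adjusted p = 0.00522). The median difference of that list was 0.37 there, against -0.04 over all genes tested.

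Most ligand genes were scarce in these cells. Dll1, Dll3, Dll4 and Jag1 reached at most 1.32, 0.15, 0.114 and 0.431 FPKM in any library, and the receptor gene Notch4 lay between 0.109 and 0.484 FPKM. Jag2, which encodes a ligand, was at 1.88 to 4.94 FPKM in NEBNext libraries and fell by 0.71 ± 0.20 for Bcl11b+ DN2a against Flt3+ ETP (limma adjusted p = 0.0403). Dlk1, which encodes a ligand-like protein of the Delta family, ranged from 0.014 to 5.88 FPKM over the libraries with a median of 0.0895, and in 10x it rose by 2.5 ± 0.73 in Il2ra and Bcl11b cells against Il2ra cells without Bcl11b (edgeR adjusted p = 0.00727). Of the 5 genes for enzymes that add sugars to the receptors, Mfng encodes the manic fringe glycosyltransferase. In bulk it fell by 0.97 ± 0.16 for Bcl11b+ DN2a against Flt3+ ETP (limma adjusted p = 0.00184). Mfng fell in both 10x comparisons as well, by 0.49 ± 0.07 (edgeR adjusted p = 8.59e-08) and 0.50 ± 0.06 (adjusted p = 1.32e-09). Rfng, the radical fringe glycosyltransferase, rose by 0.77 ± 0.23 for Bcl11b- DN2a against total ETP (limma adjusted p = 0.043). Of the 8 tested genes for receptor cleavage, Psen2 fell by 0.55 ± 0.14 (limma adjusted p = 0.025) and Furin by 0.62 ± 0.18 (adjusted p = 0.045) for Bcl11b+ DN2a against Flt3+ ETP, encoding a gamma-secretase subunit and the protease that processes the receptor precursor. Adam17, a receptor-cleaving protease, fell by 0.65 ± 0.19 for Bcl11b- DN2a against total ETP (adjusted p = 0.043), and Psenen, another gamma-secretase subunit, by 0.56 ± 0.14 for Bcl11b- DN2a against Flt3- ETP (adjusted p = 0.0435). In Il2ra cells without Bcl11b against Flt3-only cells, Psenen fell by 0.24 ± 0.06 (edgeR adjusted p = 0.000994) and the protease gene Adam10 rose by 0.29 ± 0.10 (adjusted p = 0.0428). Of the 10 corepressor genes tested, Tle3, a Groucho-family corepressor, rose by 0.70 ± 0.15 for Bcl11b- DN2a against total ETP (limma adjusted p = 0.0138) and in 10x by 0.77 ± 0.10 (edgeR adjusted p = 3.11e-09) and 0.22 ± 0.06 (adjusted p = 0.00449), and Cir1 fell by 0.21 ± 0.06 in the second 10x comparison (adjusted p = 0.00879). Of the HES and HEY family, Hes6 was at 18.2 to 61.7 FPKM in NEBNext libraries and rose by 1.27 ± 0.22 for Bcl11b- DN2a against total ETP (limma adjusted p = 0.00494) and in Il2ra cells without Bcl11b against Flt3-only cells by 0.27 ± 0.07 (edgeR adjusted p = 0.00332). None of the 7 coactivator genes and none of the 11 tested genes for inhibitors and receptor turnover was called in any bulk comparison in limma. In 10x, the Mastermind gene Maml3 fell by 0.36 ± 0.08 (edgeR adjusted p = 0.000367) and the ubiquitin ligase gene Nedd4 by 0.19 ± 0.05 (adjusted p = 0.00384) in Il2ra and Bcl11b cells against Il2ra cells without Bcl11b. Dtx3l, of the Deltex family, rose in both 10x comparisons, by 0.36 ± 0.09 (adjusted p = 0.00282) and 0.18 ± 0.06 (adjusted p = 0.0339).

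Across the 12 bulk libraries with kit means removed, the genes whose values ran most like each of the 7 were found among 8633 genes, as a description over libraries that share populations, series and kits. Nrarp ran most like Thtpa (Pearson r = 0.901), Spns2 (0.895) and Fgd2 (0.887), and Dtx1 most like Ccl5 (0.963), Erp29 (0.944) and Rogdi (0.939). Notch3 ran most like Tmem191c (0.988), Pkmyt1 (0.982) and Neil1 (0.977), and Notch1 most like Mtor (0.971), Ybx1 (0.969) and Nup210 (0.964). Notch2 ran most like Maml3 (0.966), Mccc1 (0.959) and Gltscr1l (0.958), and Maml3 encodes a Mastermind coactivator. Rbpj ran most like Eif2ak2 (0.989), Znrf2 (0.988) and Zcchc6 (0.988), and Hes1 most like Vamp5 (0.856), Yrdc (0.851) and Gadd45a (0.843). No gene of the 7 was among the 3 closest of another. Between pairs of the 7, r lay between -0.65 (Notch2 and Notch3) and 0.69 (Notch2 and Rbpj).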

How the data were processed

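The deposited bulk values are FPKM per gene, which the authors made with HOMER from reads on the exons of RefSeq gene models on mm10, per the file headers; STAR 2.4.0, RSEM 1.2.25 and edgeR 3.6.8 are named in the submitters' processing notes. The deposited C1 values are FPKM. The deposited 10x values are counts of UMIs from Cell Ranger 2.0, per the submitters' processing notes. No kit is stated to keep strand.

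Bulk values were tested with limma 3.58.1 (variance trend, R 4.3.3) on log2(FPKM + 1), with population and kit as terms, over the 12112 genes that exceeded 1 FPKM in 2 or more libraries, all 7 genes among them. A fold on this scale understates changes of low genes. Whole reads were recovered from 100.0% of low values within 0.1 read (11.0% to 15.1% with a wrong step) and tested with edgeR 4.0.16 as an alternative. For 10x, cells under 1000 genes or with 10% or more mitochondrial UMIs were removed (27 and 427 removed for genes, 101 and 6 for mitochondrial UMIs), cells with granule transcripts were those with at least 3 UMIs of granule genes, UMIs were summed per library and class, and edgeR's quasi-likelihood test with TMM scaling and a library block was used. Its filter kept 11868 genes. Adjustment was by Benjamini-Hochberg over all genes tested. On simulated data, limma recovered 74.8% to 88.2% of changes of 1 and 99.0% to 99.8% of changes of 2, and edgeR 79.0% and 90.0% of changes of 1 in the 2 comparisons. False calls made up 4.6% to 6.4% of the limma calls and 5.82% and 3.09% of the edgeR calls. The noise simulated for limma was independent between libraries and held no series effect, so its shares do not cover deviations shared within a series. In C1 cells, exact binomial intervals were computed.

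Libraries of the same series deviated together from their population means, by r = 0.904 to 0.967 for series 1 minus series 2, which holds the kit, and 0.751 for series 1 minus series 3. The series, read from the library numbers in the labels, was therefore taken to pair libraries. Spearman correlations across genes were 0.965 to 0.99 between libraries of a population made with the same kit and 0.809 to 0.844 between kits.

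All 7 genes are named in every comparison. Of the pathway lists, up to 4 called genes per list and comparison could be named, by smallest adjusted p, and for each of the 7 genes the 3 most correlated genes whose log2 values average 2 or more. The genes and lists were chosen with earlier results of these data known. Alternatives were other normalizations, pseudocount, filters, kit handling, blocks, tools, cell classes, thinning and leaving out libraries. Computation used Python 3.11.15, numpy 2.4.6, pandas 2.3.3, scipy 1.17.1 and DESeq2 1.42.0.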

Additional observations from a re-analysis of the deposited data

How the results depend on the processing

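Counts of called genes among the 7 depended on how kit and series were handled. The number of all genes called also moved with the setting, so these counts alone are not results about the 7 genes. Shares of all genes called are given with the comparisons for several of the fits, and ranges over the settings at the end. For Flt3- against Flt3+ ETP the count was 0, and 1 (Dtx1) with the series as a replicate block, with the compared populations only and without series 1, and 0 to 2 with each library left out in turn. For Bcl11b- DN2a against Flt3- ETP the count was 0, and calls were made only in fits that left a single Flt3- ETP library. For Bcl11b- DN2a against total ETP it was 2, and 0 without the low-value filter, without the kit term or with NEBNext libraries only, and 1 to 3 with a library left out. For Bcl11b+ against Bcl11b- DN2a it was 1, and 0 without the kit term or with NEBNext libraries only (Nrarp -0.96, adjusted p = 0.0565), 2 with the label number as a block, 3 with the series as a block, 4 without series 1, and 1 to 2 with a library left out. For Bcl11b+ DN2a against Flt3+ ETP it was 1, and 0 with quantile normalization, without the kit term, with NEBNext libraries only, with the compared populations only and in edgeR, 2 with the series as a block or without series 1, and 0 to 2 with a library left out. In 10x, the count for Il2ra without Bcl11b against Flt3 only was 5, and 2 (Dtx1 and Notch3) with no replicate block and 3 after thinning. The count for Il2ra and Bcl11b against Il2ra without Bcl11b was 4, and 2 (Nrarp and Notch3) with no replicate block. Leaving out series 1 was chosen after seeing the data. Leaving out any ETP library leaves 1 library in its population, as do NEBNext libraries only and leaving out series 1 for the Flt3+ and Flt3- fractions. The cause of these changes was not tested. The replicate block on the series changed no other call than those named here and in the comparisons.

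No called difference reversed under any alternative run. Differences that were not called reversed as follows. For Flt3- against Flt3+ ETP, Nrarp was 0.15 (quantile normalization), 0.09 (median-ratio scaling), 0.19 (NEBNext only) and 0.16 (edgeR), and Notch2 0.2 and Notch3 0.0 without series 1. With a library left out, Nrarp ran over -0.27 to 0.15 and Notch2 over -0.76 to 0.16. For Bcl11b- DN2a against Flt3- ETP, Notch3 was -0.01 (median-ratio scaling and without series 1) and Notch2 -0.16 (without series 1), with -0.15 to 0.42 and -0.18 to 0.74 over libraries left out. Notch1 was -0.46 for Bcl11b- DN2a against total ETP without the kit term. For Bcl11b+ against Bcl11b- DN2a, Rbpj ran over -0.35 to 0.02 with a library left out. For Bcl11b+ DN2a against Flt3+ ETP, Rbpj was 0.02 (quantile normalization and edgeR), 0.05 (no kit term) and 0.09 (NEBNext only), Dtx1 0.17 (quantile normalization and label block), 0.34 (pseudocount 0.1), 0.19 (no kit term), 0.24 (series block), 0.27 (edgeR) and 0.56 (without series 1), Hes1 0.01 (median-ratio scaling) and 0.02 (edgeR), and Notch1 0.37 (no kit term). With a library left out, Rbpj ran over -0.26 to 0.11, Dtx1 over -0.44 to 0.48, Notch1 over -0.19 to 0.0 and Hes1 over -0.12 to 0.05. For 10x cells with Il2ra and Bcl11b against Il2ra without Bcl11b, Rbpj was 0.05 (at least 2 Il2ra UMIs) and 0.06 (without granule and Cd3 cells), with -0.06 to 0.02 over single libraries, Hes1 -0.08 and Dtx1 -0.99 (without granule and Cd3 cells) and Dtx1 -0.13 (thinned).

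At more than 5 FPKM, C1 shares were 52.7% for Notch1, 8.11% for Notch2, 0.0% for Notch3, 73.9% for Hes1 and 38.7% for Rbpj. With each set of C1 library numbers left out, they were 58.5% to 77.2% for Notch1, 12.3% to 22% for Notch2 and 0.0% to 1.57% for Notch3. They were 7.69% to 11.1% for Dtx1, 80% to 84.9% for Hes1, 15.4% to 20.5% for Nrarp and 38.5% to 57.5% for Rbpj. Over the alternatives, the number of all genes called ran over 3 to 1606, 35 to 2550, 55 to 3857 and 4 to 1192 in the first 4 bulk comparisons in the order given above, reached at most 2771 in the last, and ran over 851 to 2423 and 938 to 2940 in 10x. Depth limits Notch3 and Dtx1, at as few as 42 and 46 reads in a bulk library and 3 and 2 UMIs in Flt3-only cells.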
